A study of Homo sapiens with 12 samples.

Results

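Transcripts of 10 genes of the Notch pathway were followed in HK-2, an epithelial line from human renal proximal tubule, modified so that doxycycline switches on the fusion gene PRCC-TFE3. The members were chosen by name: the receptor genes NOTCH1, NOTCH2 and NOTCH3, the ligand genes JAG1, JAG2 and DLL1, the nuclear factors RBPJ and MAML1, and the target genes HES1 and HEY1. All 10 were found among the 26334 gene symbols of the table. Cells were kept for 48 h with doxycycline (Dox) and the CDK8 and CDK19 inhibitor MSC2530818 at 100 nM, with Dox in DMSO, with the inhibitor, or with DMSO alone (vehicle). Each of the 4 conditions had 3 libraries of poly(A) RNA, given in the design as independent biological replicates. All 12 libraries came from the same inducible line, grown in puromycin and blasticidin S. Dox was not given to cells without the fusion gene, so the fusion and Dox itself cannot be told apart.

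Notch receptors are membrane proteins that are cut when a ligand on a neighbouring cell binds them. ADAM proteases and then gamma-secretase release the intracellular domain, which joins RBPJ on DNA and recruits Mastermind proteins such as MAML1 to switch on genes such as HES1 and HEY1. CDK8 with cyclin C is a known kinase of that intracellular domain, and the phosphorylated form is taken to degradation by the ubiquitin ligase substrate receptor FBXW7. In the kidney, Notch signalling helps to form the proximal nephron and is active again in injured tubules.

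The promoters of HES1 and JAG1 are shown because these were the members whose transcripts moved most. Each is given as the 250 bases before the RefSeq transcription start (GRCh38.p14, 5′ to 3′ in the direction of transcription), at chr3:194135898-194136147 on the plus strand for HES1 and chr20:10674000-10674249 on the minus strand for JAG1. Capitals mark the letters TGGGAA, the core that RBPJ recognises, searched on both strands (TTCCCA on the other).
HES1: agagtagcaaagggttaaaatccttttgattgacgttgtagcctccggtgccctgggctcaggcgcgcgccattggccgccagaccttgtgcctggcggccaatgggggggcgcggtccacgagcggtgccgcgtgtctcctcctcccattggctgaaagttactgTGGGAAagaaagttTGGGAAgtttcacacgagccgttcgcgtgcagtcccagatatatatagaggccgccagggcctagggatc
JAG1: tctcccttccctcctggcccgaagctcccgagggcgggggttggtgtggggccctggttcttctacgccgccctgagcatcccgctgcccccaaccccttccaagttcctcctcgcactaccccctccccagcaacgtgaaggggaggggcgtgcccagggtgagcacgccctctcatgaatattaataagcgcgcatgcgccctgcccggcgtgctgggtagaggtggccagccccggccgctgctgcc
HES1 held TGGGAA in 2 places, from 84 to 79 and from 70 to 65 bases before the start, and JAG1 held it in none. Of 35116 promoters of this length, 20.8% held the letters at least once and 2.90% held them in 2 or more places. Of the 8 members with a RefSeq promoter entry, 1, HES1, had a match. The E-box letters CACGTG, which MiT/TFE proteins can bind and which read the same on both strands and do not overlap the other motif, were in 0 of these 8 and in 6.34% of all such promoters. Of the further pathway genes NRARP, TLE3, KAT2B and LFNG, searched in the same way, TLE3 alone held CACGTG, from 68 to 63 bases before the start. No overlap with factor binding was measured here.

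Levels are FPKM, fragments scaled by transcript length and library, so they can be set side by side between genes. NOTCH2 was the most abundant member, with a mean of 41.8 ± 2.1 FPKM (SD over the 12 libraries). JAG1 followed at 28.6 ± 13, below NOTCH2 in 9 of 12 libraries, and was above RBPJ (20.4 ± 2.9) in 7 of 12 libraries. This order changed with condition. With the inhibitor JAG1 averaged 46.1 FPKM, above NOTCH2 at 39.0, and with Dox it averaged 12.9, below RBPJ at 21.6. NOTCH1 stood at 12.1 ± 1.2, MAML1 at 10.1 ± 0.87, NOTCH3 at 8.72 ± 1.0 and HES1 at 7.0 ± 2.3 FPKM. These neighbours overlapped in their ranges, NOTCH1 being above MAML1 in 11 libraries, MAML1 above NOTCH3 in 9 and NOTCH3 above HES1 in 10. JAG2 (0.63 to 1.7 FPKM) and HEY1 (0.59 to 1.37) were low, and DLL1 lay between 0.02 and 0.19. Among the members, JAG1 was thus the most abundant ligand transcript and NOTCH2 the most abundant receptor transcript.

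**Figure D1:**
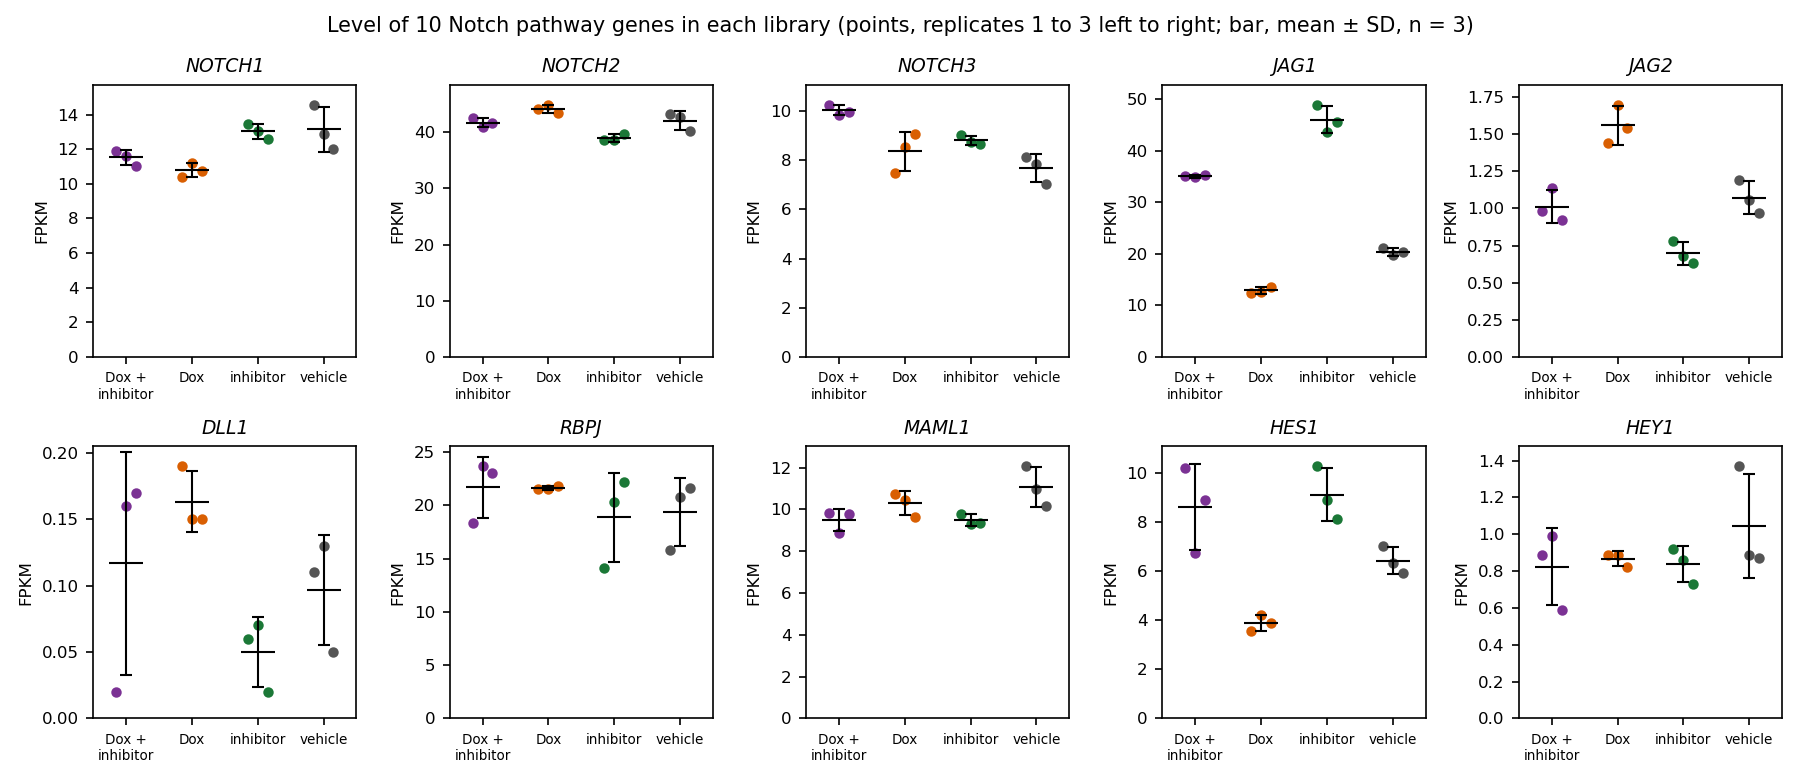
FPKM (vertical axes, each from 0) of the 10 members in the 12 libraries, by condition from left to right: Dox plus inhibitor, Dox, inhibitor, vehicle. Points are libraries and bars are means ± SD (n = 3). On average JAG1 and HES1 were lowest with Dox and highest with the inhibitor, and JAG2 had the opposite order; the HES1 ranges with and without Dox overlapped in the presence of the inhibitor.

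Across the table, 12649 genes reached 1 FPKM in at least 3 of the 12 libraries and were tested on log2(FPKM + 1) with limma, with calls at a Benjamini-Hochberg adjusted p under 0.05. Of the members, 8 of 10 passed that filter, and DLL1 and HEY1 did not. FPKM sums per library ran from 429208 to 473950. TFE3, whose symbol here covers the fusion and the cells' own gene and which checks the induction, averaged 84.2 ± 3.1 FPKM with Dox plus inhibitor, 150 ± 4.0 with Dox, 27.8 ± 1.7 with inhibitor and 35.8 ± 3.1 with vehicle. PRCC averaged 28.6 ± 3.6 FPKM with Dox plus inhibitor, 41.7 ± 1.7 with Dox, 22.8 ± 2.3 with inhibitor and 28.5 ± 2.6 with vehicle. The inhibitor therefore came with less TFE3 transcript in induced cells (-0.82 on the log2 scale, adjusted p = 5e-06), and the part of this in the differences below was not tested. In uninduced cells too, every inhibitor library lay below every vehicle library, for TFE3 (26.3 to 29.7 against 32.7 to 38.9 FPKM) and for PRCC (20.3 to 24.8 against 25.8 to 30.9). Of the calls, 59.2% were higher for Dox, 66.7% for Dox in the presence of the inhibitor, 30.8% for the inhibitor and 35.3% for the inhibitor in the presence of Dox. After median-ratio scaling these shares were 41.6%, 33.7%, 54.9% and 54.1%, and after quantile normalization 43.3%, 41.0%, 49.7% and 50.3%. The median gene stood at -0.12 for the inhibitor against vehicle as deposited and at -0.01 after median-ratio scaling.

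The labelled cell type was checked against markers. The epithelial markers EPCAM, KRT8, KRT18 and KRT19 and the renal tubule markers PAX8, GGT1 and MME were above 1 FPKM in every library. CDH1 and the proximal tubule markers LRP2, CUBN, SLC34A1, AQP1, ANPEP and PAX2 stayed under 1 in all 12. The 5 endothelial markers were under 1 in all libraries. Among leukocyte markers, PTPRC and CD3E were under 1, and CD68 lay between 25.4 and 58.4 FPKM. The leukocyte sum, nearly all CD68, was 29.5 to 33.8 FPKM with Dox plus inhibitor, 53.0 to 58.5 with Dox, 25.4 to 31.0 with inhibitor and 34.2 to 42.3 with vehicle, and its part in the results was not tested. The 10 proximal tubule markers summed to 219 to 231 FPKM with Dox plus inhibitor, 182 to 196 with Dox, 258 to 266 with inhibitor and 189 to 219.8 with vehicle. The 5 epithelial markers summed to 496 to 538 FPKM with Dox plus inhibitor, 433 to 454 with Dox, 649.6 to 780.3 with inhibitor and 552 to 641 with vehicle. Both sums reached their lowest value with Dox and their highest with the inhibitor, as JAG1 did, though the proximal tubule ranges of Dox and vehicle overlapped. Their part in the JAG1 and HES1 results was not tested.

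JAG1, the Jagged ligand gene on chromosome 20 (10637684 to 10673999, minus strand, GRCh38), was the member that changed most, in opposite directions with Dox and with the inhibitor. Its FPKM was 35.02, 34.85 and 35.38 with Dox plus inhibitor, 12.43, 12.68 and 13.65 with Dox, 48.97, 43.74 and 45.52 with inhibitor, and 21.19, 19.68 and 20.34 with vehicle. No 2 of the 4 conditions overlapped. In bulk RNA, fewer cells with the transcript and less transcript per cell cannot be told apart.

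With Dox, JAG1 fell by 0.62 ± 0.06 on the log2 scale (SE, adjusted p = 2.4e-05), to 0.63 times the vehicle mean. In the presence of the inhibitor the Dox change was -0.38 ± 0.06 (adjusted p = 0.0013), or 0.76 times the mean with inhibitor alone. The inhibitor raised JAG1 by 1.14 ± 0.06 without Dox (adjusted p = 1.2e-07), 2.26 times the vehicle mean. With Dox it raised JAG1 by 1.38 ± 0.06 (adjusted p = 3.5e-08), 2.72 times the mean with Dox alone. Each of these 4 calls held in all 20 alternatives, with the inhibitor changes between 1.09 and 1.25 without Dox and between 1.35 and 1.47 with it. The Dox change was 0.24 less negative with the inhibitor than without it (95% interval 0.06 to 0.41). This difference was not called by limma (adjusted p = 0.17). Besides microRNA genes, GENCODE lists antisense genes overlapping JAG1 and NOTCH1, and the opposite-strand gene FAM120B overlapping DLL1. JAG2 and DLL1 are each overlapped by a further gene on their own strand, which strand cannot separate. The library kit keeps strand, but whether quantification used it is not given in the sources used here.

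JAG2, the other Jagged ligand gene (chromosome 14, 105140981 to 105168824, minus strand), went the other way at a much lower level. It had 0.98, 1.14 and 0.92 FPKM with Dox plus inhibitor, 1.44, 1.7 and 1.54 with Dox, 0.78, 0.68 and 0.63 with inhibitor, and 1.19, 1.06 and 0.97 with vehicle. Every Dox library was above every vehicle library, and every inhibitor library was below every vehicle library. Dox raised JAG2 by 0.30 ± 0.08 (adjusted p = 0.026), to 1.45 times the vehicle mean. JAG2 was lower with the inhibitor, by -0.29 ± 0.08 without Dox (adjusted p = 0.018) and by -0.35 ± 0.08 with Dox (adjusted p = 0.0081), at 0.65 times the matched mean in both cases. The ratio of JAG1 to JAG2 was 34.9 ± 4.0 with Dox plus inhibitor, 8.32 ± 0.75 with Dox, 66.5 ± 5.1 with inhibitor and 19.1 ± 1.7 with vehicle (SD, n = 3 each).

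The JAG2 call with the inhibitor in the presence of Dox held in all 19 alternatives in which the gene was tested. The other 2 calls each ended in 7 of those 19, including quantile normalization (0.22 for Dox and -0.20 for the inhibitor, adjusted p = 0.12 and 0.11). The JAG2 call for Dox also ended without vehicle replicate 2 or 3 or Dox replicate 2 or 3 (0.27 to 0.31, adjusted p = 0.068 to 0.10). That for the inhibitor also ended without vehicle replicate 1 or inhibitor replicate 2 or 3 (-0.28 to -0.25, adjusted p = 0.052 to 0.059). With a pseudocount of 0.1 the changes were 0.50 for Dox, -0.56 for the inhibitor and -0.58 for the inhibitor with Dox. In the presence of the inhibitor, the Dox change of 0.25 was not called without a replicate block (adjusted p = 0.061) and was called with it (adjusted p = 0.049) and without a filter (adjusted p = 0.049). DLL1, a Delta-like ligand gene, was too low to be tested, and in a fit without a filter it was called in none of the 5 comparisons (adjusted p from 0.32 to 1).

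HES1, a helix-loop-helix repressor and the best known direct Notch target (chromosome 3, 194136145 to 194138732, plus strand), changed in the same directions as JAG1. It had 10.17, 6.73 and 8.89 FPKM with Dox plus inhibitor, 3.56, 4.19 and 3.87 with Dox, 10.26, 8.89 and 8.13 with inhibitor, and 7.03, 6.32 and 5.91 with vehicle. The Dox libraries were below all others, and the Dox plus inhibitor range overlapped those of inhibitor and of vehicle. HES1 fell by 0.61 ± 0.13 with Dox (adjusted p = 0.0068), to 0.60 times the vehicle mean. In the presence of the inhibitor the Dox change was -0.08 (95% interval -0.36 to 0.20, adjusted p = 0.65). The inhibitor raised HES1 by 0.44 ± 0.13 without Dox (adjusted p = 0.018) and by 0.96 ± 0.13 with Dox (adjusted p = 1.8e-04). With Dox plus inhibitor its mean was 2.22 times that with Dox alone.

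The difference between the Dox changes of HES1 was 0.52 (95% interval 0.13 to 0.92) and was not called by limma (adjusted p = 0.19). Without the second library with Dox plus inhibitor it was 0.67 (adjusted p = 0.049). The call for the inhibitor without Dox ended without vehicle replicate 2 or 3 or inhibitor replicate 1 (0.36 to 0.43, adjusted p = 0.053 to 0.061), while the calls for Dox and for the inhibitor with Dox held in all 20 alternatives. HEY1, a related target gene, averaged 0.82 ± 0.21 FPKM with Dox plus inhibitor, 0.87 ± 0.04 with Dox, 0.84 ± 0.10 with inhibitor and 1.04 ± 0.28 with vehicle. These ranges overlapped, and without a filter HEY1 was called in none of the 5 comparisons (adjusted p from 0.39 to 0.99).

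**Figure D2:**
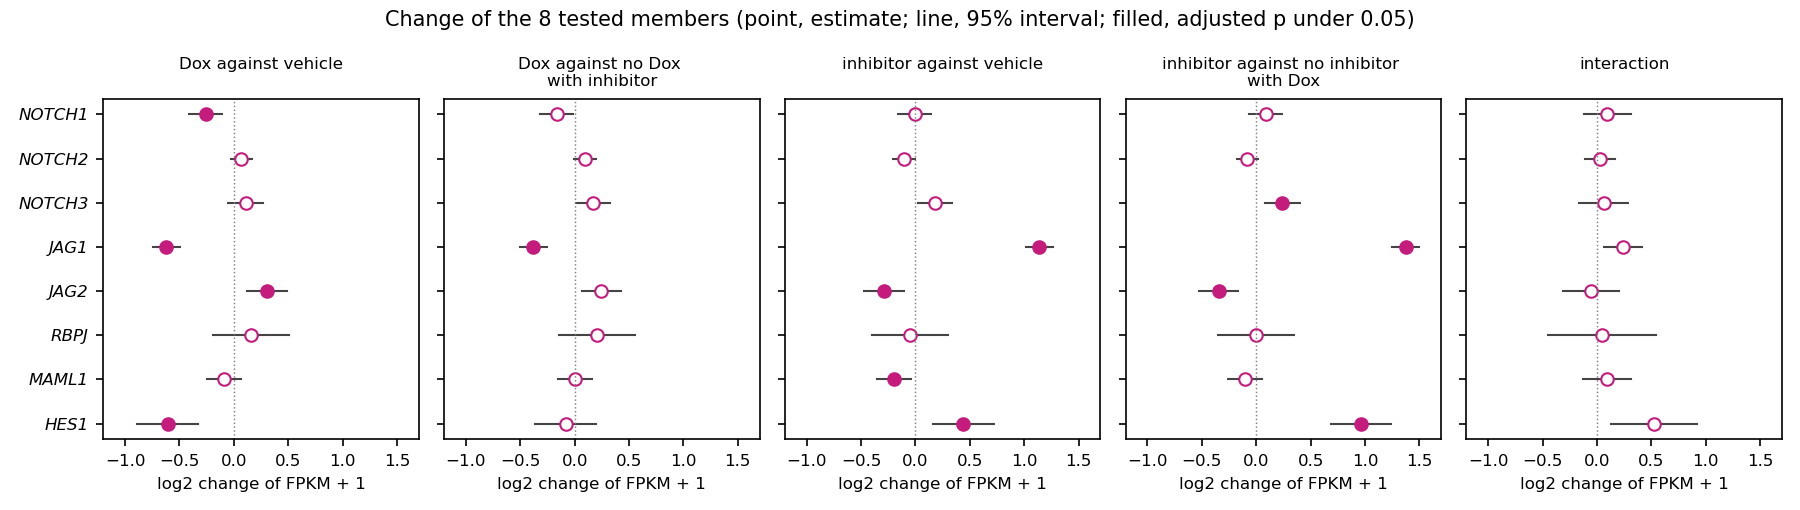
Change on the log2(FPKM + 1) scale (horizontal axes) of the 8 tested members in the 5 comparisons, each the first-named condition minus the one after it. Points are estimates, lines are 95% intervals and filled points have an adjusted p under 0.05. JAG1 lay at -0.62 with Dox and at 1.14 and 1.38 with the inhibitor, and 0 members were called for the interaction.

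Receptor transcripts varied little beside those of the ligands. NOTCH1 (chromosome 9, 136494433 to 136545786, minus strand) had 11.9, 11.64 and 11.06 FPKM with Dox plus inhibitor, 10.4, 11.23 and 10.76 with Dox, 13.48, 13.03 and 12.61 with inhibitor, and 14.58, 12.87 and 12.01 with vehicle. The libraries with Dox lay below their counterparts without Dox, with and without the inhibitor. The fall with Dox was called (-0.26 ± 0.07, adjusted p = 0.024), and the change of -0.16 in the presence of the inhibitor was not (adjusted p = 0.12, and 0.034 at -0.25 after median-ratio scaling). The inhibitor left NOTCH1 at -0.01 without Dox (95% interval -0.16 to 0.14) and at 0.09 with it (-0.06 to 0.24). The Dox call ended without any one of vehicle replicates 1 and 2 and Dox replicates 1 and 3 (-0.27 to -0.19, adjusted p = 0.059 to 0.087), in the fit to the 6 libraries compared (adjusted p = 0.074), and in replicates 2 and 3 alone (-0.16, adjusted p = 0.11).

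NOTCH3 (chromosome 19, 15159038 to 15200981, minus strand), a receptor gene known from vascular smooth muscle, had 10.26, 9.85 and 9.98 FPKM with Dox plus inhibitor, 7.47, 8.55 and 9.05 with Dox, 9.02, 8.74 and 8.66 with inhibitor, and 8.12, 7.86 and 7.03 with vehicle. NOTCH3 was highest with Dox plus inhibitor, as was the summed level of the 5 smooth muscle and pericyte markers (14.4 to 16.8 FPKM with Dox plus inhibitor, 3.65 to 4.1 with Dox, 9.7 to 10.4 with inhibitor and 3.26 to 4.71 with vehicle). Of these markers DES, MYH11 and PDGFRB stayed under 1 FPKM in all 12 libraries, the sum coming from ACTA2 and RGS5, and their part in the NOTCH3 result was not tested. The Dox range of NOTCH3 overlapped those of vehicle and of the inhibitor. The inhibitor raised it by 0.24 ± 0.07 in the presence of Dox (adjusted p = 0.025). Without Dox the change was 0.18 (adjusted p = 0.072), and it was called after median-ratio scaling (0.29, adjusted p = 0.011), after quantile normalization (0.29, adjusted p = 0.019), without vehicle replicate 1 (0.22, adjusted p = 0.049), without Dox replicate 1 and in replicates 2 and 3 alone. The call with Dox ended without Dox replicate 1 or 2 or any 1 of the 3 libraries with Dox plus inhibitor (0.17 to 0.26, adjusted p = 0.050 to 0.11) and in replicates 2 and 3 alone (0.16, adjusted p = 0.12).

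NOTCH2 (chromosome 1, 119911553 to 120069626, minus strand) averaged 41.7 ± 0.80 FPKM with Dox plus inhibitor, 44.2 ± 0.75 with Dox, 39.0 ± 0.67 with inhibitor and 42.1 ± 1.7 with vehicle. It was called in none of the 5 comparisons, with changes from -0.11 to 0.10, though the inhibitor change was called without vehicle replicate 3 (-0.14, adjusted p = 0.039). The table also lists NOTCH2NL, a near-identical partial copy of NOTCH2, and how the authors' quantification split reads between the copies is not given in the sources used here.

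RBPJ, the DNA-binding factor of the pathway, had 18.37, 23.69 and 23.03 FPKM with Dox plus inhibitor, 21.5, 21.5 and 21.86 with Dox, 14.16, 20.28 and 22.2 with inhibitor, and 15.77, 20.83 and 21.68 with vehicle. Replicate 1 was the lowest library of RBPJ in 3 of the conditions. RBPJ was called in none of the 5 comparisons. Its 95% intervals ran from -0.19 to 0.51 for Dox and from -0.14 to 0.56 for Dox in the presence of the inhibitor. They ran from -0.40 to 0.30 for the inhibitor and from -0.35 to 0.35 for the inhibitor in the presence of Dox. Changes of RBPJ within these intervals were not excluded. MAML1, the coactivator that binds the intracellular domain and RBPJ, averaged 9.50 ± 0.54 FPKM with Dox plus inhibitor, 10.3 ± 0.57 with Dox, 9.48 ± 0.28 with inhibitor and 11.1 ± 0.97 with vehicle. It was called as lower with the inhibitor (-0.20 ± 0.07, adjusted p = 0.046), a call that ended in 15 of 20 alternatives, among them median-ratio scaling (-0.09, adjusted p = 0.39).

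For Dox, 1 of the 8 tested members rose and 3 fell, against 17.9% of all tested genes called (10.6% higher and 7.31% lower). After quantile normalization 0 rose and 3 fell, with 2305 of all 12649 genes called, 998 of them higher. In the presence of the inhibitor 1 fell, JAG1, against 18.2% called (12.2% higher and 6.06% lower). These were 2304 genes, and 4548 with the replicate block, where JAG2 rose too. After median-ratio scaling 2 members fell, with 1885 of the 12649 genes called, 635 of them higher. For the inhibitor 2 rose and 2 fell, against 38.0% called (11.7% higher and 26.3% lower). After either rescaling 3 members rose and 0 fell. Of the 12649 genes, 4015 were then called after median-ratio scaling (2204 higher) and 4071 after quantile normalization (2023 higher). For the inhibitor in the presence of Dox 3 rose and 1 fell, against 32.1% called (11.3% higher and 20.8% lower). For the interaction 0 of 8 were called by limma, 2 of them (JAG1 and HES1) having p under 0.05 before adjustment, against 2.82% of all genes called (0.909% higher and 1.91% lower). The 4 single comparisons share condition groups, so they are not independent of each other.

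The other genes of the pathway were taken from a list of 55, of which 40 passed the filter and 15 did not, among them NOTCH4, DLL4, HES5, HEY2 and HEYL. For Dox 5 rose and 3 fell, 20% against 17.9% of all tested genes, at a median of 0.00 (0.04 over all). In the presence of the inhibitor 5 rose and 5 fell, 25% against 18.2%, at a median of 0.03 (0.08 over all). For the inhibitor 9 rose and 6 fell, 37.5% against 38.0%, at a median of -0.03 (-0.12 over all). In the presence of Dox 8 rose and 6 fell, 35% against 32.1%, at a median of -0.03 (-0.08 over all). The shares were not tested against each other, and nothing particular to the list is read from them. For the interaction 0 were called by limma, and 4 had p under 0.05 before adjustment. The 20 genes with the largest called changes carried 42 calls, of which 22 held in every alternative.

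Among the target and feedback genes, NRARP, an ankyrin repeat protein gene that Notch induces and whose product limits Notch signalling, ran with HES1 and JAG1. It had 3.01, 2.46 and 3.09 FPKM with Dox plus inhibitor, 1.68, 1.72 and 1.81 with Dox, 4.59, 4.61 and 3.92 with inhibitor, and 2.57, 2.46 and 1.93 with vehicle. The inhibitor raised it by 0.70 ± 0.10 without Dox (adjusted p = 2.4e-04) and by 0.49 ± 0.10 with Dox (adjusted p = 0.0029), and it fell by 0.48 ± 0.10 with Dox in the presence of the inhibitor (adjusted p = 0.0075). The change with Dox alone was -0.27 (adjusted p = 0.077), and it was called after median-ratio scaling (-0.31, adjusted p = 0.050) and quantile normalization (-0.36, adjusted p = 0.050), and without vehicle replicate 3 (-0.36, adjusted p = 0.025). HES7, a HES family gene of the segmentation clock, had -0.52 with Dox in the presence of the inhibitor (adjusted p = 0.021), and HES6 had -0.40 there (adjusted p = 0.040) and 0.36 with the inhibitor (adjusted p = 0.036), calls that ended in 5 of 19 alternatives for HES7 and in 10 and 7 of 19 for HES6. Without 1 library, the HES7 call ended when inhibitor replicate 1 or 2 or Dox plus inhibitor replicate 2 or 3 was left out, and its change was -0.82 with a pseudocount of 0.1. In replicates 2 and 3 alone, HES6 had 0.16 with the inhibitor (adjusted p = 0.30). HES4 varied from 7.72 to 18.9 FPKM among libraries and was called in none of the comparisons.

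Corepressors and coactivators held the largest changes outside the members. TLE3, a Groucho-family corepressor gene whose product is recruited by HES proteins, had 7.26, 6.06 and 6.15 FPKM with Dox plus inhibitor, 3.07, 2.95 and 3.2 with Dox, 9.12, 9.31 and 8.92 with inhibitor, and 4.07, 4.05 and 4.03 with vehicle. No 2 conditions overlapped. The inhibitor raised TLE3 by 1.00 ± 0.07 (adjusted p = 1.2e-06) and by 0.88 ± 0.07 with Dox (adjusted p = 3.5e-06), and it fell by 0.31 ± 0.07 with Dox (adjusted p = 0.0087) and by 0.44 ± 0.07 with Dox in the presence of the inhibitor (adjusted p = 0.0018). TLE1, of the same family, fell with Dox (-0.28 in both settings, adjusted p = 0.014 and 0.018). SPEN, a corepressor partner of RBPJ, rose with the inhibitor (0.41 without Dox, adjusted p = 0.0050, and 0.34 with it, adjusted p = 0.017). For Dox in the presence of the inhibitor SPEN had -0.27, not called without a replicate block and called with it (adjusted p = 0.029). It was also called there after median-ratio scaling (-0.36, adjusted p = 0.025), after quantile normalization (-0.35, adjusted p = 0.016) and without inhibitor replicate 1 (-0.39, adjusted p = 0.0039). The TLE1 calls ended without vehicle replicate 2 or Dox replicate 1 for Dox, and without inhibitor replicate 1 or 2 or Dox plus inhibitor replicate 2 or 3 in the presence of the inhibitor. The SPEN call with Dox ended without Dox replicate 2.

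KAT2B, an acetyltransferase gene counted among the Notch coactivators, mirrored TLE3. It had 0.98, 1.04 and 1.01 FPKM with Dox plus inhibitor, 2.48, 2.54 and 2.92 with Dox, 0.51, 0.5 and 0.65 with inhibitor, and 1.6, 1.64 and 1.68 with vehicle. Again no 2 conditions overlapped. KAT2B fell by 0.77 ± 0.08 with the inhibitor (adjusted p = 2e-05) and by 0.86 ± 0.08 with the inhibitor in the presence of Dox (adjusted p = 9.2e-06), and Dox raised it by 0.46 ± 0.08 (adjusted p = 0.0015) and by 0.37 ± 0.08 with the inhibitor (adjusted p = 0.0078). At this low level the pseudocount mattered, the KAT2B changes with a pseudocount of 0.1 being -1.42 for the inhibitor, -1.30 for the inhibitor with Dox and 0.77 for Dox with the inhibitor. With the inhibitor and without Dox, the acetyltransferase genes CREBBP (-0.35, adjusted p = 0.0024) and EP300 (-0.27, adjusted p = 0.0013, and -0.16 after median-ratio scaling) also fell. KAT2A rose there (0.27, adjusted p = 0.0099, not called in the fit to the 6 libraries compared). EP300 rose with Dox in the presence of the inhibitor (0.26, adjusted p = 0.0052), a call that held in all 20 alternatives.

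**Figure D3:**
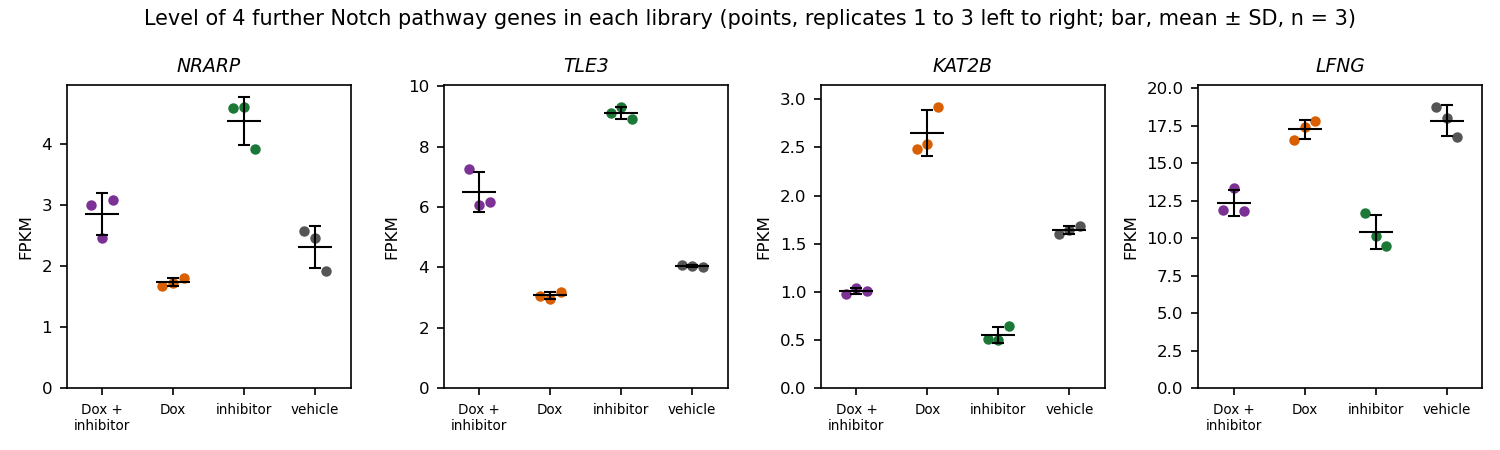
FPKM (vertical axes, each from 0) of NRARP, TLE3, KAT2B and LFNG in the 12 libraries, by condition from left to right: Dox plus inhibitor, Dox, inhibitor, vehicle. Points are libraries and bars are means ± SD (n = 3). TLE3 and KAT2B had opposite orders of the conditions, TLE3 at 9.12 and KAT2B at 0.55 on average with the inhibitor.

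Upstream of the nucleus, LFNG, the Lunatic fringe glycosyltransferase gene that tunes which ligands a receptor answers, had 11.89, 13.38 and 11.84 FPKM with Dox plus inhibitor, 16.59, 17.41 and 17.81 with Dox, 11.69, 10.15 and 9.48 with inhibitor, and 18.76, 18.04 and 16.75 with vehicle. LFNG fell by 0.72 ± 0.08 with the inhibitor (adjusted p = 3.9e-05) and by 0.45 ± 0.08 in the presence of Dox (adjusted p = 0.0012). Dox in the presence of the inhibitor had a change of 0.23 (adjusted p = 0.067, and 0.037 with the replicate block), and the change was called at 0.30 without inhibitor replicate 1 (adjusted p = 0.023). Of the cleavage genes, FURIN, which processes the receptor precursor, rose with the inhibitor (0.24 without Dox, adjusted p = 0.012, and 0.30 with it, adjusted p = 0.0042). PSEN2, a catalytic subunit of gamma-secretase, rose with Dox (0.36, adjusted p = 0.0063). The sheddase gene ADAM17 had 0.28 with Dox (adjusted p = 0.030). This ADAM17 call was lost after median-ratio scaling (adjusted p = 0.065) and without vehicle replicate 1 or 2 or any one Dox library. With Dox in the presence of the inhibitor ADAM17 had 0.34 (adjusted p = 0.015) and PSEN2 0.28 (adjusted p = 0.025). These calls ended in 4 and 9 of 20 alternatives. With the inhibitor in the presence of Dox PSEN2 had -0.26 (adjusted p = 0.020), a call that ended in 5 of 20. NUMBL, of the Numb family that antagonises Notch, rose with the inhibitor (0.29 without Dox, adjusted p = 0.0071, and 0.30 with it, adjusted p = 0.0069).

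MIB2, a ubiquitin ligase gene for Notch ligands, had 0.29 with Dox (adjusted p = 0.021) and 0.25 with the inhibitor (adjusted p = 0.024), and DTX3, of the Deltex family, had 0.36 with Dox (adjusted p = 0.020). APH1A, a further gamma-secretase subunit, had -0.30 with the inhibitor in the presence of Dox (adjusted p = 0.022), and SNW1, a nuclear cofactor, had -0.35 with the inhibitor (adjusted p = 0.020). These calls ended when single libraries were left out: for MIB2 with Dox, vehicle replicate 2 or 3 or any Dox library, and with the inhibitor, vehicle replicate 2 or 3 or inhibitor replicate 1 or 2. For DTX3 it was Dox replicate 2, for APH1A Dox replicate 2 or any library with Dox plus inhibitor, and for SNW1 vehicle replicate 3 or inhibitor replicate 1. After median-ratio scaling SNW1 had -0.23 (adjusted p = 0.11), and the MIB2 call for Dox and that of APH1A were lost too. FBXW7 averaged 9.42 ± 0.42 FPKM with Dox plus inhibitor, 9.04 ± 0.18 with Dox, 8.70 ± 1.4 with inhibitor and 8.85 ± 1.2 with vehicle, and was called in none of the comparisons. CDK8, the kinase gene named above, was called in none either. CDK19 was called for Dox in the presence of the inhibitor (0.30, adjusted p = 0.038), but this ended in 12 of 20 alternatives, median-ratio scaling among them (0.22, adjusted p = 0.11).

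**Figure D4:**
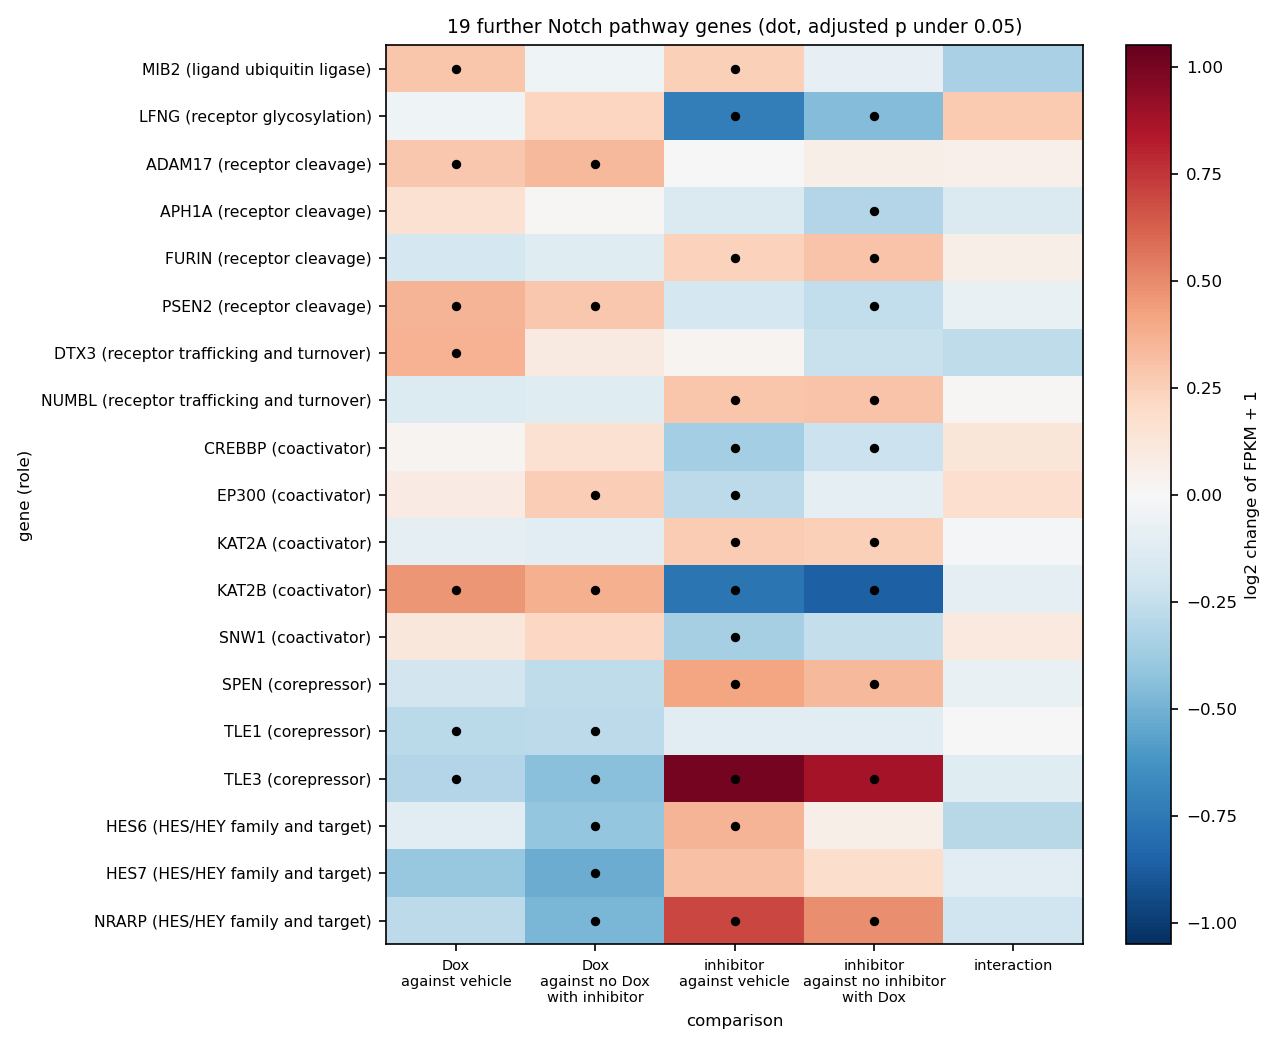
Change on the log2(FPKM + 1) scale (colour) of 19 further pathway genes (rows, with their role) in the 5 comparisons (columns). Dots mark an adjusted p under 0.05. TLE3 and KAT2B had the largest changes with the inhibitor, at 1.00 and -0.77 without Dox.

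Over the 12 libraries, which share the 4 conditions, JAG1 had a Pearson r of 0.93 with HES1, 0.93 with NRARP, 0.98 with TLE3, -0.98 with KAT2B and -0.90 with JAG2, given as descriptions. The tested genes most like JAG1 were TAGLN (r = 0.995), GPC4 (0.994) and TGIF1 (0.994). Those most like HES1 were ERVMER34-1, TNFRSF21 and RRAS (0.963, 0.963 and 0.962), and those most like JAG2 were DUSP13, ZFYVE1 and TUBB4A (0.989, 0.984 and 0.980). TAGLN, an actin-binding protein gene used as a smooth muscle marker, averaged 407 FPKM with Dox plus inhibitor, 85.2 with Dox, 571 with inhibitor and 172 with vehicle. The summed smooth muscle and pericyte markers given beside NOTCH3 were also higher with the inhibitor. That sum was highest with Dox plus inhibitor, and JAG1 and TAGLN were highest with the inhibitor alone. The part of TAGLN and of these markers in the JAG1 result was not tested.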

How the data were processed

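Poly(A) RNA from 12 HK-2 libraries was sequenced, and the authors deposited FPKM per gene symbol, with a column for each library. Per the submitters' processing notes, the tools were Salmon 1.9.0 and Trim Galore 0.6.7 and the builds GRCh38.p13 and hg38, no roles being stated. For the annotation and gene-level summing, the sources used here say nothing. Read totals are not in the table, so the depth behind each value is unknown and limits on counting error cannot be given. For genes of at most 150 bases, ratios to the gene's smallest value above 0 were taken, up to 10. Of these, 12.6% were within 0.05 of a whole number, and the share that values without whole-read steps would give was not computed. Unequal library sizes can shift such ratios, so they cannot give the depth.

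Columns were matched to samples by name. A model of the 4 group means was fitted to all 12 libraries with limma 3.58.1 in R 4.3.3 (8 residual degrees of freedom, empirical Bayes with intensity trend) on log2(FPKM + 1). Genes reaching 1 FPKM in at least 3 libraries were tested, with two-sided Benjamini-Hochberg adjustment over all of them. A change on this scale understates that of low genes. The fit was tested on simulated data with independent noise in each library. That setting leaves out deviations shared between replicates, so it does not bear on them. Same-numbered replicates deviated together between the 2 conditions with inhibitor (r = 0.55, 0.13 and 0.34 over genes). Between inhibitor and vehicle r was 0.69, 0.10 and 0.51, and between vehicle and Dox plus inhibitor it was 0.48, 0.06 and 0.32. Pairs of Dox alone with another condition had r from -0.09 to 0.20. The main fit did not pair replicates in any comparison, and a replicate block was fitted as an alternative.

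The members and lists were chosen with earlier results of these data known. Named were all members, the 20 other pathway genes with the largest called change, FBXW7, CDK8, CDK19, TFE3 and PRCC, and the 3 genes most like each of the 3 members with the widest range; a few genes of these lists are not reported here. Genomic positions are GENCODE 29 on GRCh38, and promoters are from RefSeq. Alternatives were a pseudocount of 0.1, no filter, a mean FPKM of at least 5, median-ratio scaling, quantile normalization, a replicate block, each library left out, and the compared libraries alone. Replicates 2 and 3 alone were added after seeing that replicate 1 deviated alike in 3 conditions.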

Additional observations from a re-analysis of the deposited data

Results flagged for a closer look

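The Dox change of TFE3 was smaller with the inhibitor than without it, by a test of the difference itself (-0.47 on the log2 scale, adjusted p = 0.023). Leaving out single libraries gave -0.53 to -0.41, and the call ended without any one of vehicle replicate 2, Dox replicates 1 to 3, inhibitor replicate 2 or Dox plus inhibitor replicates 2 and 3. None of the 8 tested members and none of the 40 other pathway genes tested had such a difference called.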

How the results depend on the processing

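Members carried 13 calls, and 7 of them held in every alternative: the 4 of JAG1, those of HES1 for Dox and for the inhibitor in the presence of Dox, and that of JAG2 for the inhibitor in the presence of Dox. No called change of a member turned its direction. With the replicate block 3741 genes were called for Dox (2269 without it), 4548 for Dox in the presence of the inhibitor (2304 without it) and 666 for the interaction (357 without it). It called 6167 for the inhibitor (4802 without it) and 5239 for the inhibitor in the presence of Dox (4063 without it). Among members the block changed the JAG2 call alone. The labels give same-numbered replicates only a number in common. Between Dox and vehicle, 2 of 6 libraries correlated best with their own number in the other condition, as did 2 of 6 between Dox and inhibitor. The count was 3 of 6 between Dox plus inhibitor and Dox. It was 4 of 6 between inhibitor and vehicle, between inhibitor and Dox plus inhibitor, and between vehicle and Dox plus inhibitor. The fit to the compared libraries alone called 1099 genes for Dox in the presence of the inhibitor. Leaving out 1 library gave 1427 (without Dox replicate 3) to 2665 calls for Dox, with 1492 without vehicle replicate 2. For Dox in the presence of the inhibitor it gave 1121 (without Dox plus inhibitor replicate 3) to 2920, with 1245 for its replicate 2 and 1352 when inhibitor replicate 2 was left out. For the interaction it gave 186 (without Dox replicate 2) to 420, with 198 without vehicle replicate 2, 204 without inhibitor replicate 2, 207 without Dox replicate 3, and 214 and 237 without Dox plus inhibitor replicates 3 and 2. The cause was not tested. The depth is unknown, so counting error cannot be given for low genes such as DLL1, HEY1, JAG2, HES7 and KAT2B.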
